A study of Mus musculus with 2 samples.

Results

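The genes described here are 8 lysosomal proteases, the cathepsins Ctsa, Ctsb, Ctsc, Ctsd, Ctsh, Ctsl and Ctsz and the asparaginyl endopeptidase legumain, Lgmn. They were chosen by name, with earlier results of these data known. All 8 are among the 15169 genes measured by droplet single-cell RNA sequencing of mouse kidney. The IRI library came from a kidney after unilateral ischaemia-reperfusion injury, called IRI here: the renal vessels are closed for a time and reopened. The contralateral kidney was removed by nephrectomy. The control library came from a normal kidney. Both mice were wild-type C57BL/6 animals aged 9 weeks, and both kidneys were dissociated with Liberase and DNase I. The labels give no time after injury and name no nephrectomy for the control, so effects of ischaemia and of the nephrectomy cannot be told apart.

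There was 1 library per group, so no comparison has a spread between animals or a test, and every ratio describes these 2 libraries. The IRI library held 5170 cells with 16816996 raw unique molecular identifiers (UMIs, each standing for 1 captured RNA molecule), and the control library held 6589 cells with 24169073. Median depth was 1888.5 UMIs and 716 genes per cell in the IRI library and 2344 UMIs and 911 genes in the control library. The libraries shared 55 cell barcodes, and doublets were not called. Cells carry the 18 cell type names of the deposited annotation. Macrophages are the types named Resid. Mac (306 IRI and 188 control cells), Ccr2+ Mac (217 and 32) and Cx3cr1+ Mac (19 and 106), and proximal tubule is the segments PT-S1, PT-S2 and PT-S3 (3261 and 4827 cells).

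The names were set against marker genes. All 12 macrophage markers averaged at least 0.1 depth-corrected counts per cell in IRI macrophages and 11 of 12 did in control macrophages, with summed means of 37.9 in IRI macrophages and 72.2 in control macrophages. The same 12 genes summed to 0.435 in IRI proximal tubule and 0.204 in control proximal tubule. Proximal tubule RNA was also read in macrophages: 12 tubule markers summed to 5.72 in IRI and 17.6 in control macrophages, against 32.8 in IRI and 61.6 in control proximal tubule. Much of each sum was 1 marker, Kap, an androgen-regulated transcript of the proximal tubule. It gave 2.57 and 11.5 in those macrophages and 13.5 and 36.8 in proximal tubule. T cells, which should lack the 12 markers, held a sum of 2.57 in the IRI library and 9.15 in the control library, with Kap at 1.21 and 5.31. The cells named tDL, for thin descending limb, matched their name poorly. Their 6 thin limb markers summed to 2.64 in the IRI library and 2.28 in the control library. Proximal tubule markers summed to 16.1 and 87.6 in the same libraries, of which Kap gave 11.8 and 70.2.

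Cathepsins are made as inactive proenzymes, tagged with mannose 6-phosphate in the Golgi, and activated by cleavage in the acid lumen of endosomes and lysosomes. Macrophages use them to digest engulfed cells and to process antigens, and proximal tubule cells use them to degrade filtered protein taken up through megalin and cubilin. Cathepsin B and cathepsin L are cysteine endopeptidases. Cathepsin C, cathepsin H and cathepsin Z trim peptides from their ends, cathepsin D is the main aspartic endopeptidase of the lysosome, and cathepsin A is a serine carboxypeptidase that also protects beta-galactosidase and neuraminidase. Legumain cleaves after asparagine and converts several cathepsins to their mature chains.

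Start-site windows of RefSeq (build GRCm38.p6, 250 bases before to 50 after a start) were at hand for 6 of the 8 genes: Ctsa, Ctsc, Ctsd, Ctsl, Ctsz and Lgmn. Windows of Ctsd, Ctsa and Ctsc are shown because Ctsd had the widest difference between IRI and control macrophages and Ctsc the widest between macrophages and tubule, while Ctsa holds the same letters as Ctsd. Capitals mark CACGTG, the E-box, in the windows of Ctsd (chr7:142387778-142388077, minus strand) and Ctsa (chr2:164833523-164833822, plus strand). In the window of Ctsc (chr7:88277835-88278134, plus strand) capitals mark ACTTCCTC, which is GAGGAAGT read on the other strand. Each sequence runs 5′ to 3′ on the strand of its gene.
Ctsd: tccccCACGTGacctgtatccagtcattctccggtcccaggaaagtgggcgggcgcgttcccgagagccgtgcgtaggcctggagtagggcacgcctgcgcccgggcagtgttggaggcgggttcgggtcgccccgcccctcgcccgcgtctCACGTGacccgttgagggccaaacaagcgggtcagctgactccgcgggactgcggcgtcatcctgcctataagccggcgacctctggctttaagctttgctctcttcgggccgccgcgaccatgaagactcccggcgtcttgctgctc
Ctsa: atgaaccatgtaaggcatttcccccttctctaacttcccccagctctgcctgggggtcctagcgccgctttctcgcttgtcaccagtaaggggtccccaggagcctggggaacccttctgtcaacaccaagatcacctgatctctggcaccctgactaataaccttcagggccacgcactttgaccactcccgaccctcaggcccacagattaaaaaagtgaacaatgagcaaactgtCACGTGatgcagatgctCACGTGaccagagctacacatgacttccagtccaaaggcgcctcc
Ctsc: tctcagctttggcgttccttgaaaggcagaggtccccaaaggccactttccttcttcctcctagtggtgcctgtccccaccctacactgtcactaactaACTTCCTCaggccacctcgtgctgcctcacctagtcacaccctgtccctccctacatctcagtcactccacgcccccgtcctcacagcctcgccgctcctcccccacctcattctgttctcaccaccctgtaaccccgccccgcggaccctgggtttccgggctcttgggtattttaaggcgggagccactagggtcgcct
Both strands of every window were searched. The palindrome TCACGTGA, a core of the element bound by TFEB, contains CACGTG and is in the Ctsd window and in 1 of 2 Ctsa windows, the one shown. It is in 0.974% of all 32851 RefSeq windows and in 1.70% of the 14290 windows of genes measured here. CACGTG is in 7.15% of all windows and 9.43% of those of measured genes, and is also in the Ctsl window and in 1 of 2 Lgmn windows. GAGGAAGT, a core bound by PU.1 (Spi1), is in 3.2% of all windows and 3.28% of those of measured genes and, among these genes, in that of Ctsc. A match of letters is a description of the window, not of binding.

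Levels are given in 2 ways. The depth-corrected count per cell, as deposited, is a model-scaled count averaged over the cells of a type, and log2 ratios of these means have 0.05 added to each. UMIs per 10000 raw UMIs were recovered for every gene but Ctsa, with exact Poisson 95% intervals for a level and exact conditional 95% intervals for a ratio. These intervals cover counting error only. A ratio was counted when at least 2-fold.

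The sum of the 7 genes with recovered UMIs placed the types of cell as follows. In the IRI library it was 47.6 UMIs per 10000 in Ccr2+ macrophages (interval 46.6 to 48.7), 36.5 in the 19 Cx3cr1+ macrophages (33.1 to 40.2), 25.3 in the cells named Injured PT, 23.6 in resident macrophages, 19.4 in neutrophils and 18.6 in tDL cells. PT-S3 cells held 17.9, PT-S1 cells 14.1 and PT-S2 cells 6.14, and T cells held 4.91. Control Cx3cr1+ macrophages held 33.5 (31.9 to 35.1) and myofibroblasts 26.0, while Ccr2+ macrophages held 12.9, resident macrophages 11.4, PT-S1 cells 8.77, PT-S3 cells 7.64, T cells 5.06 and PT-S2 cells 2.63. The intervals of Injured PT (24.4 to 26.3) and resident macrophages (22.3 to 25.0) overlapped in the IRI library, as did those of Ccr2+ (11.4 to 14.5) and resident macrophages (9.82 to 13.2) in the control library.

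**Figure D1:**
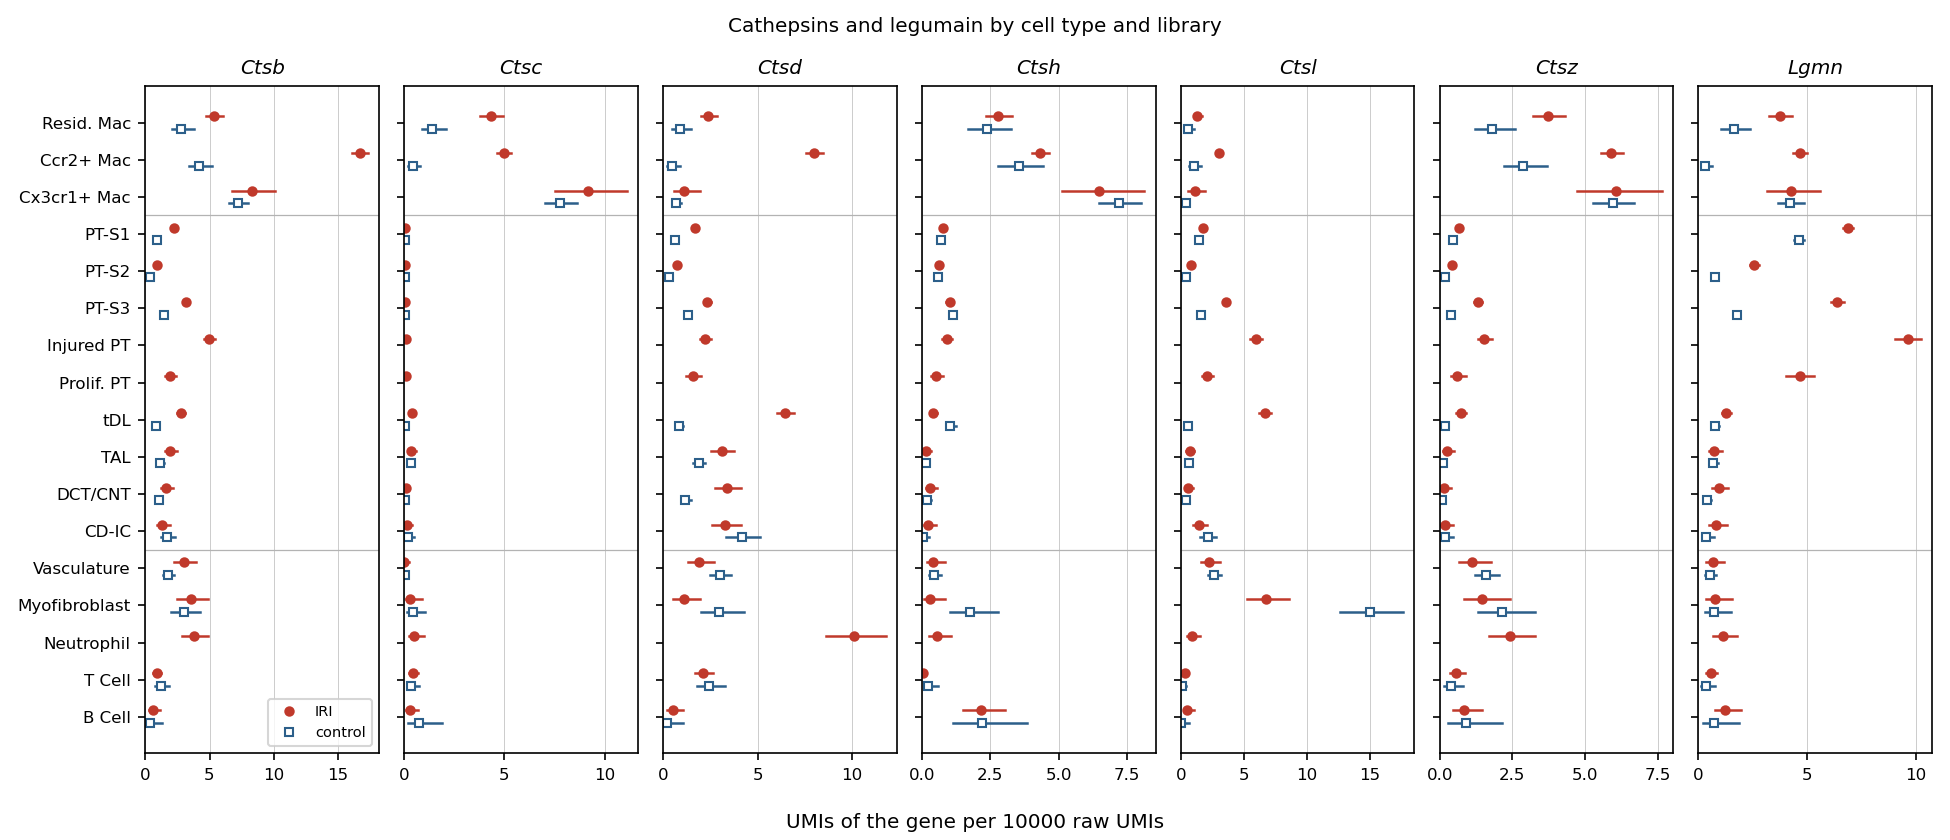
UMIs of 7 genes per 10000 raw UMIs (x axis, linear, its own range in each panel) in each cell type (rows), with filled circles for IRI and open squares for control; bars are exact Poisson 95% intervals, which cover counting error only. Types with fewer than 19 cells in a library have no point for it. Ctsc is at 0.0453 UMIs per 10000 or less in proximal tubule segments and at 0 in IRI vasculature. Lgmn reaches 9.65 in Injured PT and 6.89 in IRI PT-S1 cells.

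Ctsb, the cysteine endopeptidase best known for its activity after leaking from lysosomes, was highest in the Ccr2+ macrophages of the IRI library, at 16.7 UMIs per 10000 (16.1 to 17.4). Those of the control library held 4.20. Cx3cr1+ macrophages held 8.31 in the IRI library, from 19 cells, and 7.23 in the control library, and resident macrophages 5.33 and 2.81. Tubule types lay below the macrophages of their library. The nearest was Injured PT at 4.96, whose interval (4.55 to 5.40) overlapped that of IRI resident macrophages (4.71 to 6.02).

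Ctsc, the dipeptidyl peptidase that activates granule proteases of leukocytes, was close to 0 in the proximal tubule. It stood at 0.0453, 0.0433 and 0.0388 UMIs per 10000 in IRI PT-S1, PT-S2 and PT-S3 cells and at 0.0265, 0.0158 and 0.0132 in the same control segments. T cells held 0.437 in the IRI library and 0.341 in the control library, above all 3 segments. Tubule cells at that level were IRI tDL cells at 0.370 (0.270 to 0.495) and TAL cells at 0.323 in the IRI and 0.335 in the control library. Macrophages were far higher, at 9.18 in IRI and 7.79 in control Cx3cr1+ cells, 4.98 and 0.425 in Ccr2+ cells, and 4.32 and 1.37 in resident cells. The control Ccr2+ cells thus stood near the T cell level. Those 32 cells also held dendritic cell markers, summed to 3.34 corrected counts per cell against 0.581 in the 217 IRI cells of that name, and 3 of 12 macrophage markers were at 0 in them.

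Ctsh, an aminopeptidase, and Ctsz, a carboxypeptidase, followed the macrophages in both libraries. Ctsh held 6.49 UMIs per 10000 in IRI and 7.21 in control Cx3cr1+ cells, 4.33 and 3.54 in Ccr2+ cells and 2.80 and 2.37 in resident cells. B cells held 2.16 Ctsh UMIs per 10000 in the IRI library and 2.21 in the control library, and T cells 0.0257 and 0.227. Ctsz held 6.06 and 5.96 in Cx3cr1+ cells, 5.91 and 2.88 in Ccr2+ cells and 3.73 and 1.81 in resident cells.

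Ctsd, the aspartic protease, was spread over more types of cell. Among types with at least 20 cells, IRI neutrophils held 10.1 UMIs per 10000, IRI Ccr2+ macrophages 7.99 and IRI tDL cells 6.45. The control Ccr2+ macrophages held 0.472 and the control tDL cells 0.854. Intercalated cells of the collecting duct, CD-IC, which acidify urine with proton pumps, held 3.28 in the IRI and 4.16 in the control library, where they stood highest of the types with at least 20 cells. T cells held 2.13 and 2.44, above the control macrophages at 0.656.

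Ctsl and Lgmn were also high in tubule or stromal cells. Ctsl, the cysteine endopeptidase, held 6.76 UMIs per 10000 in IRI myofibroblasts and 15.0 in control ones, 6.67 and 0.597 in tDL cells, and 3.61 and 1.59 in PT-S3 cells. Ccr2+ macrophages held 3.02 in the IRI library and 1.09 in the control library. Lgmn held 9.65 in Injured PT, 6.89 and 4.63 in PT-S1 cells, 6.40 and 1.79 in PT-S3 cells, and 2.57 and 0.755 in PT-S2 cells, IRI before control in each. Among macrophages Lgmn held 4.68 and 0.283 in Ccr2+ cells, 4.24 and 4.24 in Cx3cr1+ cells and 3.75 and 1.62 in resident cells. PT-S1 cells lay above every macrophage type in both libraries, but the intervals of control PT-S1 (4.39 to 4.88) and Cx3cr1+ cells (3.68 to 4.86) overlapped.

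Ctsa, the serine carboxypeptidase, has corrected counts only. It averaged 0.895 per cell in IRI and 0.717 in control Cx3cr1+ macrophages, 0.507 and 0.406 in Ccr2+ cells, 0.370 in Injured PT, 0.206 and 0.0904 in resident macrophages, and 0.203 and 0.178 in PT-S1 cells. T cells held 0.0619 in the IRI library and 0.119 in the control library, so resident macrophages of the control library lay below control T cells.

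The first comparison set macrophages against proximal tubule within each library. In the IRI library 6 of the 8 genes were at least 2-fold higher in macrophages (Ctsa, Ctsb, Ctsc, Ctsd, Ctsh and Ctsz) and none was at least 2-fold lower, where 7.24% of 11580 genes measured in these cells were at least 2-fold higher and 7.91% at least 2-fold lower. Of the same genes in the control library 5 were at least 2-fold higher (the same without Ctsd) and none lower, where 6.76% of 11707 genes were higher and 8.74% lower. The median log2 ratio of the 8 genes was 2.06 in the IRI library and 1.95 in the control library, and over all measured genes it was -0.09 and -0.08.

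Ctsc had the widest ratio. It averaged 1.06 corrected counts in IRI macrophages and 0.00859 in IRI proximal tubule, a log2 ratio of 4.24, and 5.05 UMIs per 10000 against 0.0431 was 117-fold (86.4 to 163). Control macrophages averaged 0.856 and control proximal tubule 0.00249, a log2 ratio of 4.11. The control tubule value rests on 32 UMIs in 4827 cells.

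The exopeptidases Ctsh and Ctsz and the endopeptidase Ctsb were at least 4-fold higher in macrophages in both libraries by either measure. Ctsb averaged 2.44 corrected counts in IRI macrophages and 0.371 in IRI proximal tubule (log2 2.56; UMI ratio 6.29, 5.96 to 6.65), and 0.880 in control macrophages and 0.135 in control proximal tubule (log2 2.33; UMI ratio 6.53, 5.89 to 7.23). Ctsh averaged 0.804 and 0.131 in the IRI library (log2 2.24; UMI ratio 5.19, 4.71 to 5.71) and 0.896 and 0.140 in the control library (log2 2.32; UMI ratio 6.59, 5.92 to 7.31), macrophages before tubule. Ctsz averaged 1.12 and 0.145 in the IRI library (log2 2.59; UMI ratio 6.98, 6.37 to 7.64) and 0.761 and 0.0532 in the control library (log2 2.97; UMI ratio 14.2, 12.5 to 16.2). Ctsa averaged 0.351 and 0.138 in the IRI library (log2 1.09) and 0.325 and 0.0754 in the control library (log2 1.58). The Ctsa ratio fell below 2-fold in 2 of 13 alternatives in the IRI library, at 0.70 at the lowest, and in 1 of 13 in the control library, at 0.93.

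Ctsd passed 2-fold in the IRI library and not in the control library. It averaged 1.13 corrected counts in IRI macrophages and 0.271 in IRI proximal tubule, a log2 ratio of 1.88 and a UMI ratio of 3.93 (3.66 to 4.22). In the control library it averaged 0.110 in macrophages and 0.107 in proximal tubule, a log2 ratio of 0.03 and a UMI ratio of 0.887 (0.666 to 1.16). Whether the ratio differs between the animals was not tested.

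Ctsl and Lgmn were within 2-fold between macrophages and proximal tubule in both libraries. Ctsl averaged 0.494 in IRI macrophages and 0.367 in IRI proximal tubule (log2 0.38), and 0.0859 in control macrophages and 0.191 in control proximal tubule (log2 -0.82). Lgmn averaged 0.803 in IRI macrophages and 1.06 in IRI proximal tubule (log2 -0.38; UMI ratio 0.773, 0.722 to 0.826), and 0.454 and 0.309 in the same control cells (log2 0.49; UMI ratio 1.57, 1.37 to 1.79).

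**Figure D2:**
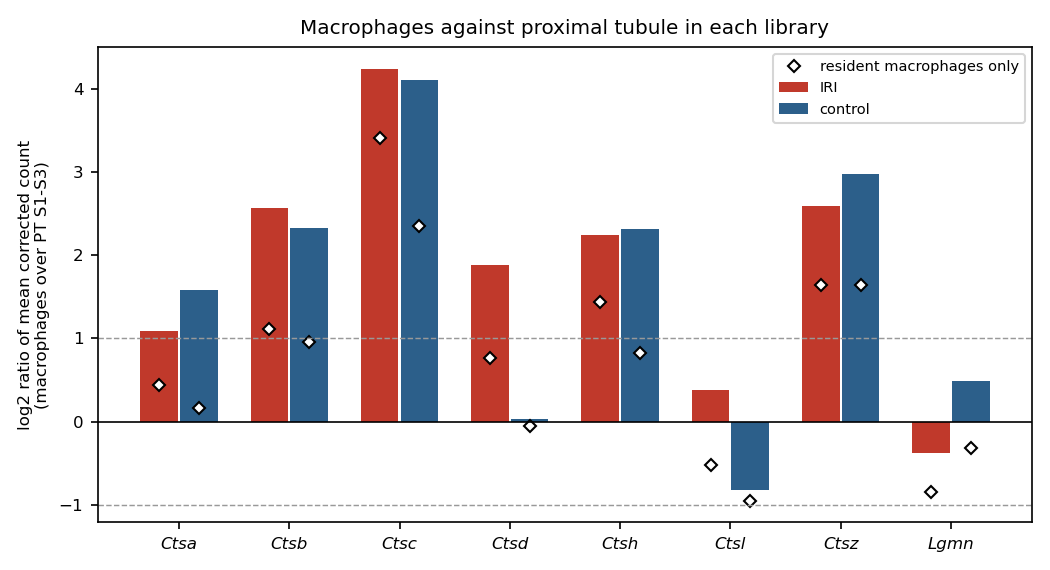
Log2 ratio of the mean corrected count, macrophages over proximal tubule S1 to S3 (y axis), for each gene, IRI bars left of control bars; diamonds give resident macrophages only and dashed lines mark 2-fold. Ctsc reaches 4.24 and 4.11, Ctsd stands at 1.88 in the IRI library and 0.03 in the control library, and Ctsl and Lgmn stay within 2-fold.

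By corrected counts, resident macrophages gave lower ratios than all macrophages for each of the 8 genes in both libraries. Per raw UMI, Ctsd in the control library went the other way, at 0.873 UMIs per 10000 in resident and 0.656 in all macrophages, from 14 and 56 UMIs. In the IRI library 4 of 8 were at least 2-fold higher than in proximal tubule (Ctsb 1.11, Ctsc 3.41, Ctsh 1.44 and Ctsz 1.64 on the log2 scale), and none lower, where 3.52% of genes were higher and 8.79% lower. Control resident cells had Ctsc at 2.35 and Ctsz at 1.64 and none lower, where 1.85% of genes were higher and 11.8% lower. Per raw UMI, Ctsb at 3.25 (2.36 to 4.36) and Ctsh at 2.90 (2.04 to 3.99) were also at least 2-fold higher there, making 4 of 7 genes. Resident macrophages held fewer UMIs per cell, with a median of 799.5 in the IRI and 599.5 in the control library, and more tubule RNA. Their tubule markers summed to 9.06 corrected counts in the IRI library and 25.5 in the control library. The part of that RNA in these ratios was not tested. A subtraction of tubule RNA scaled by Kap was run in other comparisons only.

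The segments of the proximal tubule differed among themselves. Relative to PT-S1 cells, IRI macrophages were at least 2-fold higher in 5 genes and lower in Lgmn at -1.03, where 7.1% of genes were higher and 12.3% lower. Control macrophages were higher in 4 and lower in Lgmn at -1.13 and Ctsl at -1.37, where 6.93% of genes were higher and 14.2% lower. Per raw UMI neither Lgmn ratio was 2-fold, at 0.646 (0.602 to 0.693) in the IRI and 0.598 (0.518 to 0.687) in the control library. Relative to PT-S2 cells, which held least of these RNAs, IRI macrophages were higher in 7 genes, all but Lgmn at 0.61, where 10.1% of genes were higher and 6.63% lower. Control macrophages were higher in 6, Lgmn at 1.44 among them, where 8.58% of genes were higher and 8.26% lower, and per raw UMI also in Ctsd at 2.17 (1.59 to 2.90). Relative to PT-S3 cells, IRI macrophages were higher in 5 genes and lower in none, where 8.66% of genes were higher and 10.8% lower, and control macrophages were higher in 5 and lower in Ctsl at -1.54, where 7.8% were higher and 11.5% lower.

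Against each type named for a tubule part beyond the proximal tubule, Lgmn was at least 2-fold higher in macrophages in both libraries, while Ctsd and Ctsl varied by type. The tDL cells are placed here by name only, since they held many proximal tubule markers as given above. Relative to thick ascending limb (TAL), IRI macrophages were at least 2-fold higher in 7 of 8 genes, all but Ctsd at 0.83, where 12.2% of genes were higher and 13.6% lower. Per raw UMI the Ctsd ratio was 2.06 (1.69 to 2.53). Control macrophages were higher in 6 and lower in Ctsd at -1.22, where 9.11% of genes were higher and 11% lower. Relative to distal convoluted and connecting tubule (DCT/CNT), IRI macrophages were higher in 7, where 12.8% of genes were higher and 18.9% lower, and control macrophages in 6, where 8.88% were higher and 15.4% lower. Lgmn stood at 2.27 and 2.59 there. Relative to CD-IC cells, IRI macrophages were higher in 6, where 14.1% of genes were higher and 15.1% lower. Control macrophages were higher in 6 and lower in Ctsd at -2.05 and Ctsl at -1.56, where 15.4% were higher and 15.6% lower. Relative to tDL cells, IRI macrophages were higher in 6 and lower in Ctsl at -1.10, where 7.14% of genes were higher and 5.97% lower, and control macrophages were higher in 6, where 10.8% were higher and 10.5% lower.

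The share of each gene's RNA that lay in macrophages followed from these levels and from how many cells were captured. Macrophages were 10.5% of cells and 13.4% of raw UMIs in the IRI library, and 4.95% of cells and 3.53% of raw UMIs in the control library. They held 88.6% of all Ctsc UMIs in the IRI library and 82.4% in the control library. For Ctsz the shares were 50.9% and 33.8%, for Ctsh 47.3% and 20.4%, and for Ctsb 47.2% and 18.6%. Ctsd had 30.5% of its UMIs in macrophages in the IRI library and 2.65% in the control library, Ctsl 13.2% and 2.0%, and Lgmn 12.1% and 6.06%. Proximal tubule cells, with the injured and proliferating ones, held 84.2% of Lgmn UMIs in the IRI library and 88.2% in the control library, and 63.2% and 80.2% of Ctsl UMIs. They were 68.3% and 80.7% of raw UMIs. The numbers of cells depend on dissociation and capture in 1 kidney each.

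**Figure D3:**
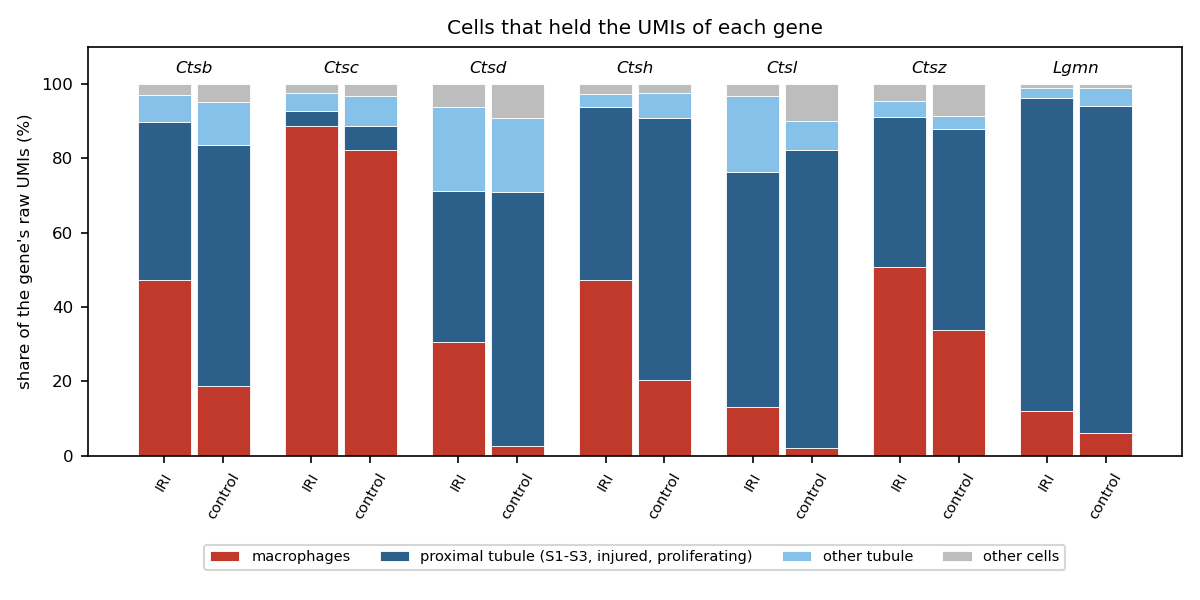
Share of each gene's raw UMIs (y axis, percent) held by macrophages, proximal tubule, other tubule and other cells, with the IRI bar left of the control bar for each gene. Other tubule is, by deposited name, tDL, TAL, DCT/CNT and CD-IC. Macrophages hold 88.6% and 82.4% of Ctsc, while proximal tubule holds 84.2% and 88.2% of Lgmn.

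The second comparison set the IRI library against the control library within macrophages. Taking all 3 types together, 3 of 8 genes were at least 2-fold higher in IRI macrophages and none lower, where 2.46% of 7893 genes were higher and 2% were lower. Ctsd averaged 1.13 corrected counts in IRI and 0.110 in control macrophages, a log2 ratio of 2.88 and a UMI ratio of 9.77 (7.48 to 13). Ctsl averaged 0.494 in IRI and 0.0859 in control macrophages (log2 2.0; UMI ratio 4.35, 3.26 to 5.93). Ctsb averaged 2.44 in IRI and 0.880 in control macrophages (log2 1.42; UMI ratio 2.44, 2.22 to 2.70). The other 5 genes were within 2-fold: Lgmn at 0.76, Ctsz at 0.53, Ctsc at 0.29, Ctsa at 0.09 and Ctsh at -0.15.

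The mix of macrophage types differed between the libraries, and its part in the count was not tested. Of 17 alternatives, equal weights for the 3 types among them, 16 gave a count within 1.5 times of 3. Ccr2+ cells were 217 of the 542 IRI macrophages and 32 of the 326 control ones, and Cx3cr1+ cells were 19 and 106. Without the Cx3cr1+ cells, 7 of 8 genes were at least 2-fold higher in IRI macrophages. Without the Ccr2+ cells, 2 of 8 were, Ctsd at 1.74 and Ctsl at 1.40, and Ctsb stood at 0.21. Ctsd and Ctsl were thus at least 2-fold higher with either type left out.

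Resident macrophages, present in both libraries in number, had 5 of 8 genes at least 2-fold higher in the IRI library and none lower, where 6.66% of 4219 genes were higher and 3.29% lower. Ctsd averaged 0.493 in IRI and 0.101 in control resident cells (log2 1.85), from 118 and 14 UMIs, and its UMI ratio was 2.74 (1.57 to 5.16). Ctsb averaged 0.856 and 0.309 (log2 1.34; UMI ratio 1.90, 1.38 to 2.67). Ctsl averaged 0.242 and 0.0745 (log2 1.23; UMI ratio 2.35, 1.16 to 5.36), Ctsc 0.572 and 0.218 (log2 1.21; UMI ratio 3.15, 2.02 to 5.13) and Lgmn 0.569 and 0.239 (log2 1.10; UMI ratio 2.31, 1.53 to 3.63), each IRI before control. Ctsz stood at 0.92, Ctsa at 0.87 and Ctsh at 0.54. All 8 ratios were above 0, and the median over all measured genes was 0.17. The summed macrophage markers were 19.6 in IRI and 29.2 in control resident cells, and their part in these ratios was not tested. The summed tubule markers were 9.06 and 25.5. Subtracting tubule RNA scaled by Kap, or the T cell mean of each library, was among the alternatives run. Over 11 alternatives Ctsb ran from 0.93 to 3.38, Ctsc from 0.88 to 2.75, Lgmn from 0.81 to 2.84 and Ctsh from -0.14 to 0.72. On recovered UMIs Ctsb was under 2-fold and Ctsz was at 2.06 (1.39 to 3.17), so the count was again 5. The count was 3 after scaling by the trimmed mean of log ratios, and also 3 when cells under 1000 raw UMIs were left out.

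In Ccr2+ macrophages the IRI cells were at least 2-fold higher in 6 of 8 genes and none lower, where 12.5% of genes were higher and 6.51% lower, with log2 ratios of 3.85 for Lgmn, 3.62 for Ctsd, 2.96 for Ctsc, 1.88 for Ctsb, 1.45 for Ctsl and 1.34 for Ctsz. Ctsa stood at 0.29 and Ctsh at 0.14. The control values rest on 32 cells, with 6 Lgmn UMIs, 9 Ctsc UMIs and 10 Ctsd UMIs, and on cells that hold dendritic cell markers as given above. The part of those cells in the ratios was not tested.

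The third comparison set IRI against control proximal tubule. Over segments S1 to S3, 3 of 8 genes were at least 2-fold higher in the IRI library and none lower, where 0.41% of 11944 genes were higher and 0.762% lower. Lgmn averaged 1.06 corrected counts in IRI and 0.309 in control cells, a log2 ratio of 1.63 and a UMI ratio of 3.27 (3.14 to 3.42). Ctsb averaged 0.371 and 0.135 (log2 1.18; UMI ratio 2.54, 2.38 to 2.71) and Ctsd 0.271 and 0.107 (log2 1.03; UMI ratio 2.20, 2.05 to 2.37), IRI before control. Ctsz stood at 0.92, Ctsl at 0.79, Ctsa at 0.59, Ctsc at 0.16 and Ctsh at -0.07. On recovered UMIs 5 of 7 genes were at least 2-fold higher, Ctsz at 2.51 (2.26 to 2.80) and the sparse Ctsc, with 43 UMIs in IRI and 32 in control cells, in addition.

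The ratios were smaller when clusters of cells were weighted alike. The deposited clusters of the segments were unevenly filled: PT-S3 cluster 3 held 727 IRI and 127 control cells and PT-S3 cluster 4 held 58 and 742, while PT-S2 cluster 1 held 25 and 1283. With the 8 clusters that held at least 20 cells in each library weighted equally, none of the 8 genes reached 2-fold. Ctsd then stood at 0.75, Ctsb at 0.74, Lgmn at 0.58, Ctsz at 0.47, Ctsl at 0.34, Ctsa at 0.20, Ctsc at 0.09 and Ctsh at 0.04. Within single clusters Lgmn ran from -0.34 in PT-S2 cluster 12 to 0.87 in PT-S3 cluster 3, and reached 2-fold in none of the 8, nor did it per raw UMI. Ctsd was at least 2-fold higher in IRI cells of 4 of these clusters, at 1.62 in PT-S3 cluster 3, 1.58 and 1.26 in PT-S1 clusters 6 and 5, and 1.2 in PT-S2 cluster 1, the last from 4 UMIs in the IRI cells and at 1.46 (0.394 to 3.81) per raw UMI. Over the 8 clusters 0.29% to 4.06% of genes were at least 2-fold higher in IRI cells, with 1.31%, 0.73%, 0.836% and 4.06% in those 4.

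By segment, PT-S1 cells had Ctsd at 1.37 and Ctsb at 1.13, where 0.675% of genes were at least 2-fold higher in the IRI library and 0.424% lower. PT-S2 cells had Lgmn at 1.59, where 0.234% of genes were higher and 0.996% lower. Per raw UMI 6 of 7 genes were at least 2-fold higher in PT-S2 cells, all but Ctsh, among them Ctsb at 2.56 (2.14 to 3.05), Ctsd at 2.37 (1.94 to 2.89) and Ctsz at 2.34 (1.80 to 3.02). PT-S3 cells had Lgmn at 1.82, Ctsz at 1.58, Ctsb at 1.22 and Ctsl at 1.03, where 1.09% of genes were higher and 2.34% lower, and per raw UMI Ctsc was added from 10 UMIs in each library. No gene of the 8 was at least 2-fold lower in any of the 3 segments.

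**Figure D4:**
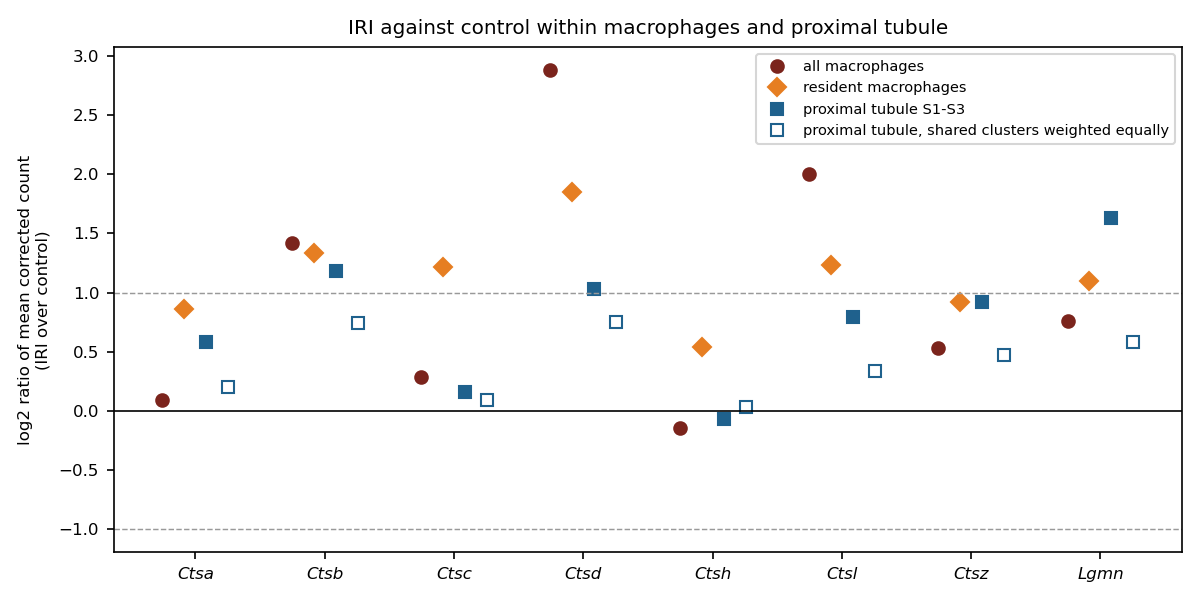
Log2 ratio of the mean corrected count, IRI over control (y axis), in all macrophages (circles), resident macrophages (diamonds) and proximal tubule S1 to S3 (filled squares), with the 8 shared tubule clusters weighted equally as open squares; dashed lines mark 2-fold. Ctsd is highest in all macrophages at 2.88, and no open square reaches 2-fold.

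The cells named Injured PT, 135 in the IRI library and 0 in the control library, were set against PT-S1 to PT-S3 cells of the same library. Of the 8 genes 5 were at least 2-fold higher and none lower, where 2.41% of 10850 genes were higher and 1.48% lower. Ctsl averaged 1.70 corrected counts in Injured PT and 0.367 in the segments (log2 2.07; UMI ratio 2.94, 2.68 to 3.21). Ctsb averaged 1.30 and 0.371 (log2 1.68; UMI ratio 2.26, 2.05 to 2.49), Lgmn 2.56 and 1.06 (log2 1.23; UMI ratio 1.67, 1.57 to 1.79), Ctsa 0.370 and 0.138 (log2 1.16), and Ctsz 0.363 and 0.145 (log2 1.08; UMI ratio 1.97, 1.65 to 2.33), injured cells first. Ctsd stood at 0.73 and Ctsh at 0.28. Ctsc was listed at 0 corrected counts, from 7 raw UMIs. The UMI ratios of Lgmn and Ctsz are below 2-fold, and the injured cells were deeper, with a median of 8267 UMIs against 1819. Injury markers summed to 2.46 and tubule markers to 23.8 corrected counts in the injured cells.

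Among the remaining types, the widest ratios of Ctsd and Ctsl were in tDL cells. In tDL cells Ctsl stood at 2.80, Ctsd at 2.75, Ctsb at 1.45 and Ctsc at 1.17, where 4.96% of genes were at least 2-fold higher in the IRI library and 6.39% lower. Per raw UMI Ctsz was also higher at 4.16 (2.56 to 7.05) and Ctsh lower at 0.389 (0.274 to 0.545). Of these cells 420 IRI and 36 control cells were in cluster 9, and 20 and 391 in cluster 11. Within cluster 9 Ctsl averaged 1.15 in IRI and 0.167 in control cells (log2 2.47) and Ctsd 1.37 and 0.472 (log2 1.44), while Ctsh averaged 0.0738 and 0.472 (log2 -2.08). In that cluster 10.4% of genes were higher and 7.81% lower, and the control value of Ctsl rests on 3 UMIs. Per raw UMI the Ctsd ratio there was 1.60 (1.11 to 2.39), under 2-fold. Injury markers summed to 7.39 in IRI and 0.396 in control tDL cells, and their part in these ratios was not tested. In DCT/CNT cells Ctsd stood at 1.84 and Lgmn at 1.08, where 2.22% of genes were higher and 4.78% lower.

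By corrected counts, none of the genes with enough counts reached 2-fold in either direction in TAL cells (8 measured, 1.05% of genes higher and 2.29% lower), vasculature (7 measured, 1.56% and 4.37%) or CD-IC cells (3 measured, 5.88% and 7.07%). Per raw UMI Ctsz in TAL cells was at 2.28 (0.803 to 6.49), from 9 UMIs in each library. B cells had Ctsb higher at 1.16 of 4 measured, where 9.1% of genes were higher and 4.79% lower, but from 9 IRI and 2 control UMIs its ratio per raw UMI was 1.60 (0.331 to 15.2). T cells had Ctsl higher at 1.09 of 7 measured, from 12 IRI and 2 control UMIs, where 2.88% were higher and 3.37% lower. Myofibroblasts went the other way. Of 5 measured genes 3 were at least 2-fold lower in the IRI library, Ctsh at -1.52, Ctsl at -1.18 and Ctsd at -1.05, and none higher, where 6.22% of genes were higher and 19.9% lower.

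Within the IRI library the macrophage types were then compared. In Ccr2+ over resident macrophages 7 of 8 genes were at least 2-fold higher, and none lower, where 20.3% of 5753 genes were higher and 2.22% lower, with Ctsb at 2.36, Ctsd at 1.99, Ctsl at 1.64, Ctsz at 1.61, Ctsc at 1.37, Ctsh at 1.36, Ctsa at 1.12 and Lgmn at 0.92 on the log2 scale. The median over all genes was 0.47, and the Ccr2+ cells were deeper, with a median of 7177 UMIs against 799.5. Per raw UMI the ratios were 3.14 for Ctsb (2.76 to 3.57), 3.34 for Ctsd (2.76 to 4.07) and 2.29 for Ctsl (1.77 to 3.01), and 1.15 for Ctsc (0.991 to 1.35), so 3 of 7 genes remained at least 2-fold higher by that measure.

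The series is about arginase-1, so the Ccr2+ macrophages of the IRI library were split by whether a cell had an Arg1 corrected count. Of 217 cells 55 had one and 162 had none, with median depths of 8225 and 6942 UMIs. In the cells with Arg1, 4 of 8 genes were at least 2-fold higher and none lower, where 5.01% of 4009 genes were higher and 9.95% lower. Both sets of cells come from 1 animal, so the difference describes this library.

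Ctsl averaged 2.18 corrected counts in cells with Arg1 and 0.407 in cells without (log2 2.29), and 6.57 against 1.63 UMIs per 10000 was a ratio of 4.03 (3.36 to 4.85). Ctsd averaged 4.85 and 1.17 (log2 2.0), and 16.8 against 4.53 UMIs per 10000 was a ratio of 3.72 (3.33 to 4.16). Lgmn averaged 2.09 and 0.790 (log2 1.35; UMI ratio 2.24, 1.94 to 2.58) and Ctsb 7.87 and 3.51 (log2 1.16; UMI ratio 2.16, 2.0 to 2.33). These 4 are the endopeptidases of the set. The exopeptidases differed less: Ctsc stood at 0.86, Ctsz at 0.69 and Ctsa at 0.53, and Ctsh at -0.21.

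The 55 cells with Arg1 held 61.2% of the Ctsl UMIs and 59.2% of the Ctsd UMIs of this type, against 24.7% of the Ctsh UMIs. Dendritic cell markers summed to 0.164 corrected counts in cells with Arg1 and 0.722 in cells without. Leaving out every cell with such a marker kept 48 and 120 cells, in which Ctsl stood at 2.0, Ctsd at 1.96 and Lgmn at 1.18, and Ctsb at 0.97 was no longer 2-fold.

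**Figure D5:**
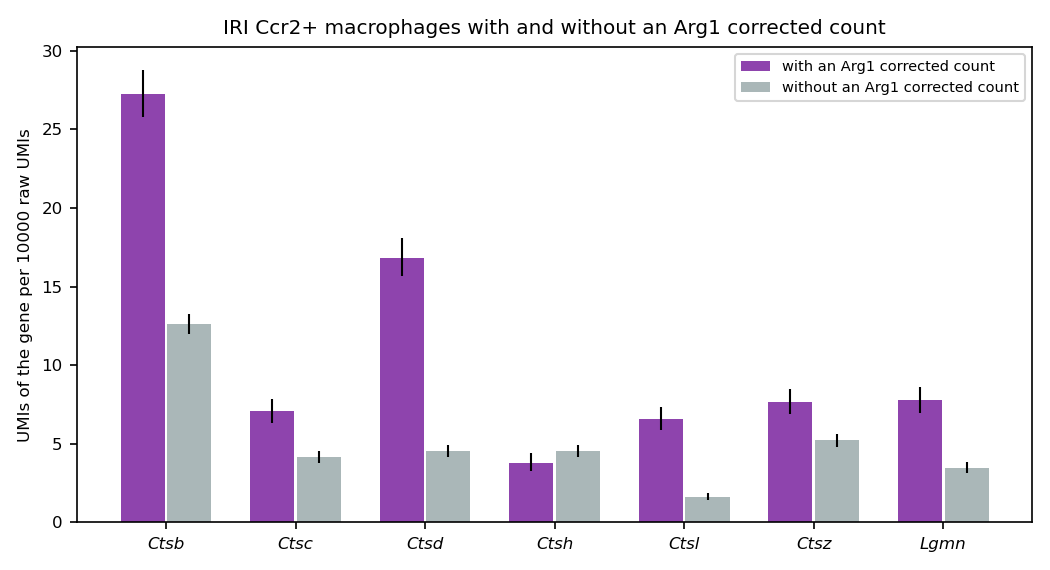
UMIs of each gene per 10000 raw UMIs (y axis) in IRI Ccr2+ macrophages, with 55 cells that have an Arg1 corrected count left of 162 cells that have none; bars are exact Poisson 95% intervals, which cover counting error only. Ctsd stands at 16.8 and 4.53 and Ctsl at 6.57 and 1.63, while Ctsh stands at 3.8 and 4.53.

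Single cells spread widely. In the 216 IRI Ccr2+ macrophages with at least 1000 UMIs, the sum of 7 genes was 11.1 UMIs per 10000 at the tenth percentile, 30.2 at the median and 99.2 at the ninetieth. The 105 control Cx3cr1+ macrophages of that depth had nearly the same median, 30.02, with 15.2 and 49.3 at the same percentiles, and 134 Injured PT cells had 23.1 with 10.1 and 42.0. Across 212 IRI Ccr2+ cells, the level per UMI of Ctsb and Ctsd had a Pearson r of 0.65, Ctsd and Lgmn 0.63, Ctsd and Ctsl 0.58 and Ctsl and Lgmn 0.55. Ctsh had -0.09 with Ctsb, -0.05 with Ctsl and -0.01 with Ctsd. These cells share 1 library and each cell's own depth, so the values are descriptions.

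Across 31 combinations of cell type and library with at least 20 cells, the genes most like each protease among 7517 genes were found by Pearson r of log2 mean corrected counts. The combinations share 2 libraries and their free RNA. For Ctsb they were Grn (0.92), which encodes progranulin, Sirpa (0.85) and Ctsz (0.83). For Ctsa they were Creg1 (0.85), Ctsb (0.83) and Psap (0.83), which encodes the saposins, and for Ctsz Apoe (0.92), Erp29 (0.90) and Ifngr2 (0.88). Ctsc was most like Cx3cr1 (0.91), Ctss (0.89) and Adgre1 (0.89), all markers of mononuclear phagocytes, and Ctsh most like Cybb (0.89), H2-Ab1 (0.88) and Ly86 (0.88). Ctsd was most like Eno1 (0.76), Stat3 (0.75) and Cstb (0.72), Ctsl most like Rbpms (0.82), App (0.81) and P4hb (0.79), and Lgmn most like Npl (0.83), Maf (0.80) and Gldc (0.79). Among the 8 genes themselves r ran from -0.13 for Ctsd and Ctsh to 0.83 for Ctsb and Ctsz.

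Other lysosomal genes, in lists also chosen with earlier results of these data known, were set beside the 8. Of 3 measured cysteine cathepsins, Ctss, which cleaves the invariant chain, was the only one at least 2-fold higher in macrophages than in proximal tubule, at 5.24 in the IRI and 5.45 in the control library. It averaged 2.44 corrected counts in IRI and 2.51 in control macrophages, a log2 ratio of -0.04. Ctsw, a cathepsin of cytotoxic lymphocytes, averaged 0.515 in IRI and 0.492 in control T cells.

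Of 42 measured lysosomal hydrolases and activators 17 were at least 2-fold higher and 2 lower in macrophages than in proximal tubule in the IRI library, with a median log2 ratio of 0.36. In the control library 16 were higher and 1 lower, with a median of 0.45. The highest in the IRI library were Lyz2 (6.23), lysozyme of myeloid cells, Laptm5 (4.13) and Ifi30 (2.93), and Neu1 (-1.31) and Arsb (-1.11) were lower. Between IRI and control macrophages 4 of 40 were at least 2-fold higher, Lyz2 (2.24), Ifi30 (1.49), Grn (1.43) and Acp5 (1.21), with a median of -0.09 where the 8 proteases had 0.65. In resident macrophages 3 of 27 were higher, Grn (2.30), Ifi30 (2.20) and Lyz2 (2.07), and none lower. In proximal tubule 2 of 43 were higher in the IRI library, Lyz2 (1.81) and Npc2 (1.01), where 0.41% of all genes were, with a median of 0.12 where the 8 proteases had 0.86. Lyz2 averaged 0.151 corrected counts in IRI and 0.00725 in control proximal tubule, against 15.1 in IRI macrophages. The summed macrophage markers in proximal tubule were higher in the IRI library too, as given above, and their part in the Lyz2 value was not tested.

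The lysosomal membrane proteins and proton pump subunits had 0 of 15 genes past 2-fold between IRI and control macrophages and 0 of 18 in proximal tubule. The sorting genes had 0 of 10 and 0 of 11. Between macrophages and proximal tubule of the IRI library, the sorting list had 1 of 11 higher, M6pr (1.11), a mannose 6-phosphate receptor, and 4 lower, Lrp2 (-3.48), Cubn (-1.90), Amn (-1.73) and Lrpap1 (-1.71). Those 4 make up and escort the megalin and cubilin uptake system. Igf2r, also a mannose 6-phosphate receptor, stood at -0.92, and M6pr was under 2-fold in the control library, at 0.78. Among the transcription factors Spi1 (4.32), which encodes PU.1, was higher in IRI macrophages than in IRI proximal tubule, and 0 of 5 were past 2-fold between IRI and control macrophages.

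Inhibitors and substrates differed beside the enzymes. Cstb, which encodes the intracellular inhibitor cystatin B, averaged 1.21 corrected counts in IRI and 0.258 in control macrophages (log2 2.03), and was also higher in IRI resident macrophages (1.21) and IRI proximal tubule (1.11). Cst3, the secreted cystatin C, averaged 6.04 in IRI and 10.9 in control macrophages (log2 -0.85). Of 11 substrates and partners 2 were higher in IRI macrophages, Spp1 (3.76) and Fn1 (3.36), and 6 were lower. The lowest were H2-Eb1 (-2.60), Cd74 (-2.47), the invariant chain that cathepsins trim, and H2-Ab1 (-2.36).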

How the data were processed

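Members and lists were chosen with earlier results of these data known. Cell Ranger 3.0.0, Seurat 3.2 and mm9 are named in the submitters' processing notes. The authors deposited depth-corrected counts, a score as SCTransform gives it: each cell sums to between 1468 and 3212, where its raw UMIs number 271 to 24680. A deposited table of natural log values holds ln(value + 1) of the same counts (largest difference 5.33e-15), and deposited residuals, also a score, cover the variable genes, with the mitochondrial share taken out. The deposited annotation has no separators. Its corrected totals matched in all 11759 cells, and in 3615 cells with 2 possible splits into UMIs and genes the residuals fitted the one kept.

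Raw UMIs of 7 genes were recovered by inverting the residuals, with Python 3.11.15, numpy 2.4.6, pandas 2.3.3 and SciPy 1.17.1. At least 99.6% of cells came out whole within 0.05 for each gene, and corrected counts computed from them equalled the deposited ones in at least 99.6%. Ctsa is not in the residual table. Means per cell type were compared as log2 ratios with a pseudocount of 0.05, for genes with at least 10 summed corrected counts, counted when at least 2-fold. No doublet was called and no cell left out. Intervals are exact 95% and cover counting error only. All 8 members were named. For each, the 3 genes of highest Pearson r over cell type and library combinations were named. From each list, genes at least 2-fold different were counted and the 3 highest and 3 lowest named, except that some are not reported here. Recovery and ratios were tested on simulated data. Promoter windows are from RefSeq.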

Additional observations from a re-analysis of the deposited data

Results flagged for a closer look

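Ctsd and Ctsl were at least 2-fold lower in myofibroblasts of the IRI library than in those of the control library, while each was at least 2-fold higher in the IRI library in 5 other cell types. The log2 ratio of Ctsd was -1.05 (means 0.286 and 0.645 corrected counts, 35 IRI and 31 control cells) and that of Ctsl -1.18 (1.29 and 2.97). The difference between cell types was not tested. Podocyte markers moved with it, summed to 0.429 in IRI and 2.10 in control cells of this name, and 2 of 5 were at 0 in the IRI cells. Without the 10 IRI and 10 control cells that held such a marker, Ctsd stood at -1.42 and Ctsl at -1.08. Of 2121 genes in these cells 19.9% were at least 2-fold lower.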

How the results depend on the processing

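No paired analysis was possible because each group is 1 library. Of the members at least 2-fold higher in macrophages than in proximal tubule, counts ran from 5 to 6 in the IRI library and from 4 to 5 in the control library over 16 alternatives each. In the control library 1 member was at least 2-fold lower, in place of 0, with a pseudocount of 0.01, with a 1.5-fold limit and after subtracting tubule RNA scaled by Kap. For IRI over control in macrophages, 7 were higher in place of 3 without the Cx3cr1+ type, and 2 to 4 in the other alternatives. In proximal tubule the 3 higher members became 1 with a pseudocount of 0.2, 5 of 7 on recovered UMIs, 6 at a 1.5-fold limit, 1 at a 3-fold limit and 0 with shared clusters weighted equally. In resident macrophages the 5 became 2 with a pseudocount of 0.2, 3 after scaling by the trimmed mean of log ratios, 3 in cells with at least 1000 raw UMIs and 1 at a 3-fold limit. Over 13 alternatives the count in resident macrophages ran from 1 to 7. The deeper minimum of raw UMIs per cell was not run in resident macrophages, since too few control cells pass it. In these comparisons no member counted as at least 2-fold different changed direction under an alternative run. The shared clusters, the Cx3cr1+ type, the Kap subtraction, the dendritic and podocyte marker cells and the split by recovered Arg1 UMIs (4 members higher, as by corrected count) were chosen after seeing the data. Scarce genes are limited by depth: the control values of Ctsl and Ctsd in resident macrophages rest on 9 and 14 UMIs.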
